A study of Mus musculus with 14 samples.

Results

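The data described here are the 126779 peaks of RNA polymerase II phosphorylated at serine 2 (Pol II S2P) in differentiating C2C12 cells, 10715 in the control list and 116064 in the list made after knockdown of Myolinc. They belong to a series with 10 such lists and 517016 peaks outside the mitochondrial genome, and they were chosen by antibody alone. The lists were compared by annotation class, by position along the gene, by gene and by distance between peak centres, both whole and at equal length. For equal length the 10715 siMyolinc peaks with the highest peak scores were kept.

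C2C12 is an established mouse myoblast line that forms myotubes in low serum. In chromatin immunoprecipitation followed by sequencing (ChIP-seq), cross-linked chromatin was taken on day 2 of differentiation and precipitated with 10 µg of antibody. The siMyolinc cells had been transfected, at 10 nM and before differentiation, with an siRNA directed at Myolinc, a long noncoding RNA, whereas the labels do not say whether control cells received a control siRNA. Each condition had 1 library from 1 cell line, so no difference between them has a replicate check and no p-value is given. The level of Myolinc itself cannot be read from ChIP-seq, so the knockdown was not checked. In bulk chromatin, fewer cells with a bound site and less polymerase per cell cannot be told apart. Input and IgG libraries were not analysed here, although by their names both peak lists were made against IgG. The series holds 1 IgG library per condition, and the names do not say which one served each list.

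The C-terminal domain of the largest Pol II subunit is a long tail of repeats. Phosphorylation of serine 5 in these repeats marks polymerase near the start of a gene. Phosphorylation of serine 2 by the P-TEFb kinase and by CDK12 and CDK13 accompanies productive elongation and is known to increase towards gene ends, where the tail recruits RNA processing factors. In differentiating myoblasts, sarcomere and fusion genes are switched on under Myod1 and Myog while cell cycle genes are shut off.

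Promoter sequences are shown for 5 genes because promoter peaks are the members whose letters can be read from the reference used, RefSeq on mm10 (GRCm38). Each is the stretch of 250 bases before the gene's annotated start, 5′ to 3′ on the strand of the gene, and capitals mark the bases inside the peak, or inside both peaks where both lists had one. Sptbn1, which encodes a spectrin of the membrane skeleton (chr11:30198258-30198507, minus strand), had the highest promoter peak among protein-coding genes whose window was met by the control list alone. Dnaaf4, an assembly factor of ciliary dynein (chr9:72958535-72958784, plus strand), is the matching example from the siMyolinc list. Ckm, muscle creatine kinase (chr7:19410844-19411093, plus strand), Myl9, a regulatory light chain of non-sarcomeric myosin (chr2:156775214-156775463, plus strand), and B3galt5, a galactosyltransferase (chr16:96280782-96281031, plus strand), had a peak in both lists and were picked after their values were seen.
Sptbn1, control alone: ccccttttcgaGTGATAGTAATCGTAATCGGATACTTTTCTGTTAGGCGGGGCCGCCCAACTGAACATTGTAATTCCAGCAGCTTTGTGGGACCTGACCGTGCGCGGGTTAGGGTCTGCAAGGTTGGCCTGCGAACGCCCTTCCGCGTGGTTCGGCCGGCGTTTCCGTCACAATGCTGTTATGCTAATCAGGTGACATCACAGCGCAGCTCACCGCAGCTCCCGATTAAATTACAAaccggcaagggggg
Dnaaf4, siMyolinc alone: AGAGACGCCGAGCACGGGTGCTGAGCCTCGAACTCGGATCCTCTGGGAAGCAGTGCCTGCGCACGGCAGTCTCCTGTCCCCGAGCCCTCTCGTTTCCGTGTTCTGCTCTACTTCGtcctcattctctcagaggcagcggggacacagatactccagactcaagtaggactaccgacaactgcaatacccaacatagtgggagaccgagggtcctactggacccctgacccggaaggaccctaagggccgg
Ckm, both lists: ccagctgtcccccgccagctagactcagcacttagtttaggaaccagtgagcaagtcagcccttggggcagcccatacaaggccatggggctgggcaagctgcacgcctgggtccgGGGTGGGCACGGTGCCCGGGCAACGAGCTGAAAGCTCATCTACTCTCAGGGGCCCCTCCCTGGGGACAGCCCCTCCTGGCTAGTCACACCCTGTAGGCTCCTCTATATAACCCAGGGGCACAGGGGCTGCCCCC
Myl9, both lists: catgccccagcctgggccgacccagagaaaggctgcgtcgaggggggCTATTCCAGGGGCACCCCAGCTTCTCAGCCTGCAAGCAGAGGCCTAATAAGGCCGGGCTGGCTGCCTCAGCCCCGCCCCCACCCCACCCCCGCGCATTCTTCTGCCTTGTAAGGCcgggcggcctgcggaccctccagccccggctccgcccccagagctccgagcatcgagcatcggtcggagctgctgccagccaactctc
B3galt5, both lists: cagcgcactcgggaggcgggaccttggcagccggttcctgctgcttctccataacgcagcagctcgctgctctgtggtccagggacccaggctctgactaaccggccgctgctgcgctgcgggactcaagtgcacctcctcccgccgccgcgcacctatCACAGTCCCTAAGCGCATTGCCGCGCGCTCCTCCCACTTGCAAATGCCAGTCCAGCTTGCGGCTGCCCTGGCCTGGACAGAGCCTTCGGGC

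A tag is 1 sequenced fragment, read here as 1 step of the deposited peak scores. The Sptbn1 promoter peak held 13 tags in control (exact Poisson 95% interval 6.92 to 22.2), and the Dnaaf4 peak held 34 tags after knockdown (23.5 to 47.5). The Ckm promoter had 5 tags in control (1.62 to 11.7) and 10 after knockdown (4.80 to 18.4), Myl9 had 6 and 11, and B3galt5 had 7 and 21. These intervals, and the Wilson intervals on shares used throughout, are at 95% and cover counting error only, because PCR copies are not independent molecules. The intervals of the 2 libraries overlap for Ckm, Myl9 and B3galt5 before any allowance for depth. If scores are scaled to 10000000 tags, the control library held 1455038 tags and the siMyolinc library 3775523, a ratio of 2.59, while the list lengths differed 10.8-fold.

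Peaks in both lists rested on few tags. The median control peak held 6 tags (quartiles 5 and 7, range 4 to 5235) and the median siMyolinc peak 11 (quartiles 9 and 15, range 6 to 76). At least 10 tags were held by 706 control peaks (6.59%) and by 78399 siMyolinc peaks (67.5%). The siMyolinc peaks used at equal length all held 19 tags or more. Peaks held 5.41% of the control library's tags and 37.6% of the siMyolinc library's. The median widths were 225 and 219 bp. Scaled to 10000000 tags per library, the order of the medians turned around, with 41.2 for the control peak and 29.1 for the siMyolinc peak, and the equal-length list had 55.6. Tags are therefore compared within a list, and tags of the 2 lists set side by side are not scaled for depth.

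Control Pol II S2P peaks lay in exons far more often than siMyolinc peaks did. Exons held 2288 control peaks, or 21.4% (20.6 to 22.1), against 3.76% (3.65 to 3.87) of the siMyolinc list and 6.37% (5.93 to 6.85) of its best peaks. Introns showed the reverse, with 28.9% in control, 41.6% after knockdown and 42.2% at equal length. Intergenic peaks made up 40.6%, 49.6% and 45.7%. The other transcript-linked classes were smaller and mostly larger in control. Promoters, the regions around transcription starts, held 3.76%, 2.00% and 2.22%, 5′ untranslated regions 0.961%, 0.204% and 0.233%, and 3′ untranslated regions 2.25%, 1.16% and 1.57%. Transcription termination sites (TTS) held 1.56% (1.34 to 1.81) and 1.38% (1.31 to 1.45), intervals that overlap.

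Repeat families also differed between the lists. Simple repeats, which are short motifs in tandem, held 996 control peaks (9.30%) against 1.34% of siMyolinc peaks and 0.420% at equal length. Short interspersed elements (SINE) went the other way, with 6.24% in control, 13.4% after knockdown and 10.1% at equal length, and so did LTR retrotransposons with 4.83%, 11.1% and 10.8%. LINE elements held 12.8%, 10.6% and 8.09%. Peaks on CpG islands made up 3.26% of the control list, 0.452% of the siMyolinc list and 0.663% of its best peaks. Counted over all repeats the shares were 35.9% in control, 38.2% after knockdown and 31.1% (30.2 to 32.0) at equal length, so the direction turned with list length.

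Within each family the leading elements were partly shared. TG and CA dinucleotide tracts made up 43.9% (40.8 to 47.0) of control simple-repeat peaks and 46.2% (43.7 to 48.7) of siMyolinc ones, but 11 of 45 (24.4%, 14.2 to 38.7) at equal length. GA and TC tracts made up 21.7% (19.2 to 24.4) and 11.9% (10.3 to 13.5), and 1 of 45 at equal length. L1Md_F2, a young L1 subfamily, led the LINE peaks of both lists with 369 and 1257 peaks. Among SINEs, B1_Mus1 led in control with 182 of 669 peaks, and B3 led after knockdown with 1772 of 15538.

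**Figure D1:**
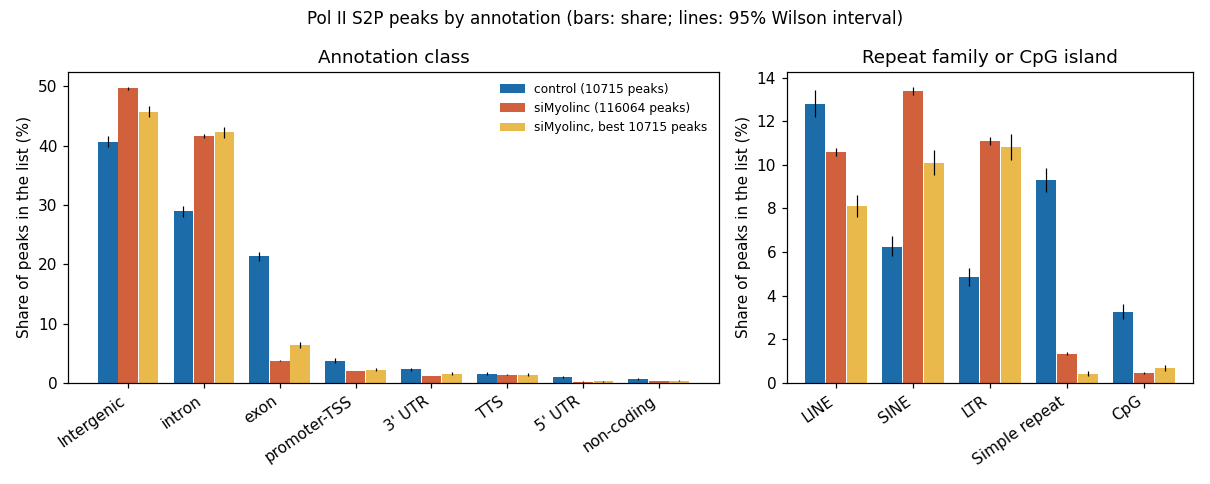
Share of peaks (%) by annotation class (left) and by repeat family or CpG island (right) for the control list, the siMyolinc list and its 10715 best-scoring peaks; lines are 95% Wilson intervals. The control bar for exons stands at 21.4% against 3.76% and 6.37%, and the control bar for simple repeats at 9.30% against 1.34% and 0.420%.

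The exon share depended on peak height in both lists. In control it was 13.3% among peaks of 5 tags or fewer, 19.7% at 6 tags, 27.9% at 7, 31.1% at 8, 33.3% at 9 to 10 and 38.5% (33.5 to 43.6) at 11 to 15. Above that only a few control peaks were left, with 4 of 17 in exons at 16 to 20 tags and 1 of 31 over 20 tags. In the siMyolinc list it was 1.97% at 6 tags, 3.26% at 9 to 10, 3.92% at 11 to 15 and 7.26% (6.66 to 7.90) over 20 tags. At equal tags the control share was higher in each class from 6 to 20 tags, and over 20 tags the intervals overlapped. A tag weighs more in the shallower control library, so equal tags do not mean equal enrichment. Simple repeats were commonest among the smallest peaks of both lists, at 13.7% of control peaks of 5 tags or fewer and 4.04% of siMyolinc peaks of 6 tags.

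**Figure D2:**
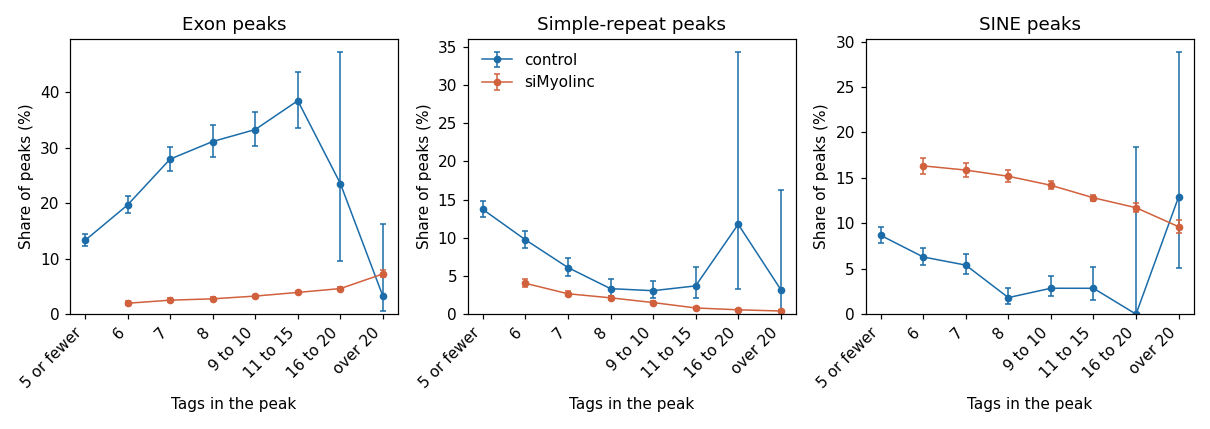
Share of peaks (%) in exons, simple repeats and SINEs against the tags in the peak, for the control and siMyolinc lists; lines are 95% Wilson intervals. The control exon share lies at 13.3% for the smallest peaks and 38.5% at 11 to 15 tags, while the siMyolinc share stays between 1.97% and 7.26%.

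Along genes, control peaks were weighted towards the gene end and, less so, the start, whereas siMyolinc peaks were spread almost evenly. Of 5703 control gene-body peaks that could be placed between the start and end of their gene, 58.4% (57.1 to 59.6) lay downstream of the midpoint. The siMyolinc value was 51.9% (51.5 to 52.4) of 52243 peaks, and 54.2% (52.8 to 55.5) at equal length. The last 10% of the gene held 16.7% of control peaks, 10.9% of siMyolinc peaks and 12.3% at equal length. The first 10% held 13.1%, 10.1% and 9.48%.

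The difference was smaller within exon peaks and within intron peaks than over all placed peaks. Among exon peaks alone, 70.2% (68.3 to 72.1) of control, 67.3% (65.9 to 68.7) of siMyolinc and 67.7% of equal-length peaks lay downstream of the midpoint. Among intron peaks alone the values were 51.0%, 49.7% and 51.3%. The siMyolinc share minus the control share was -6.42 percentage points over all placed peaks, -2.90 within exon peaks and -1.35 within intron peaks. The interval of the intron difference, 1.87 points either way, includes 0. The last exon took 26.3% (24.5 to 28.1) of control exon peaks and 20.7% (19.5 to 21.9) of siMyolinc ones, and the first exon 11.5% and 8.57%. First introns took 27.6% and 28.3% of intron peaks, with overlapping intervals.

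Distance to the nearest start pointed the same way as the promoter share. Peaks within 1 kb of a start made up 8.82% (8.30 to 9.37) of the control list, 3.68% of the siMyolinc list and 4.12% at equal length. The median distance was 24616 bp in control, 35639 bp after knockdown and 30914 bp at equal length. Thus the control list was closer to gene starts than the siMyolinc list. A larger share of placed control gene-body peaks also lay in the last 10% of the gene.

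**Figure D3:**
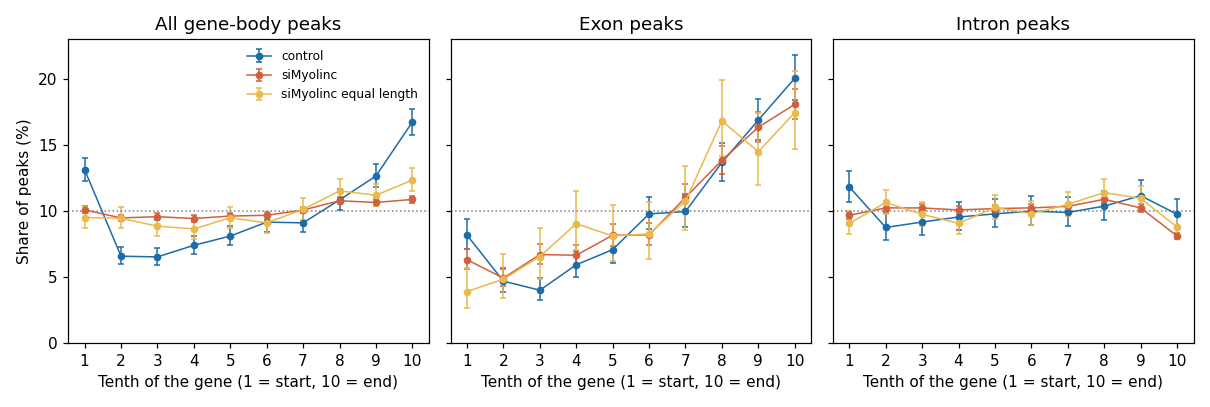
Share of placed gene-body peaks (%) in each 10% of gene length from start (1) to end (10), for all gene-body peaks, exon peaks and intron peaks; lines are 95% Wilson intervals and the dotted line marks an even spread. The control line reaches 16.7% at the gene end over all peaks, against 10.9% for siMyolinc, while the exon peaks of both lists increase towards the gene end, to 20.0% in control and 18.0% in siMyolinc.

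The class shares, and the position over all placed peaks, differed between libraries of low and high sequencing depth in the series. The 4 lists from libraries under 2000000 tags, which are control Pol II S2P and the 3 control TDP-43 libraries, had exon shares of 18.8% to 25.6%, SINE shares of 2.85% to 6.24% and simple-repeat shares of 8.58% to 10.1%. The 6 lists from deeper libraries had exon shares of 1.84% to 6.93%, SINE shares of 7.87% to 13.4% and simple-repeat shares of 1.20% to 2.27%. Those 6 include the control MyoD and control Myogenin lists, with exon shares of 1.85% and 1.84%. The share of all placed peaks downstream of the gene midpoint was 56.6% to 58.4% in the shallow lists and 51.1% to 53.3% in the deep ones. Within exon peaks it was 69.0% to 70.4% and 65.1% to 69.7%, and within intron peaks 49.1% to 51.0% and 49.4% to 51.1%, so these ranges overlapped. The TDP-43 controls, the only replicated group, had an exon share of 22.8% ± 3.59 (SD, n = 3) and a downstream share of 57.0% ± 0.620 (SD, n = 3). The siMyolinc Pol II S2P exon share was lower than all 3, and the control Pol II S2P share lay among them. For Pol II S2P the depth, and possibly the IgG library, differed together with the knockdown, so the contribution of each cannot be told apart.

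**Figure D4:**
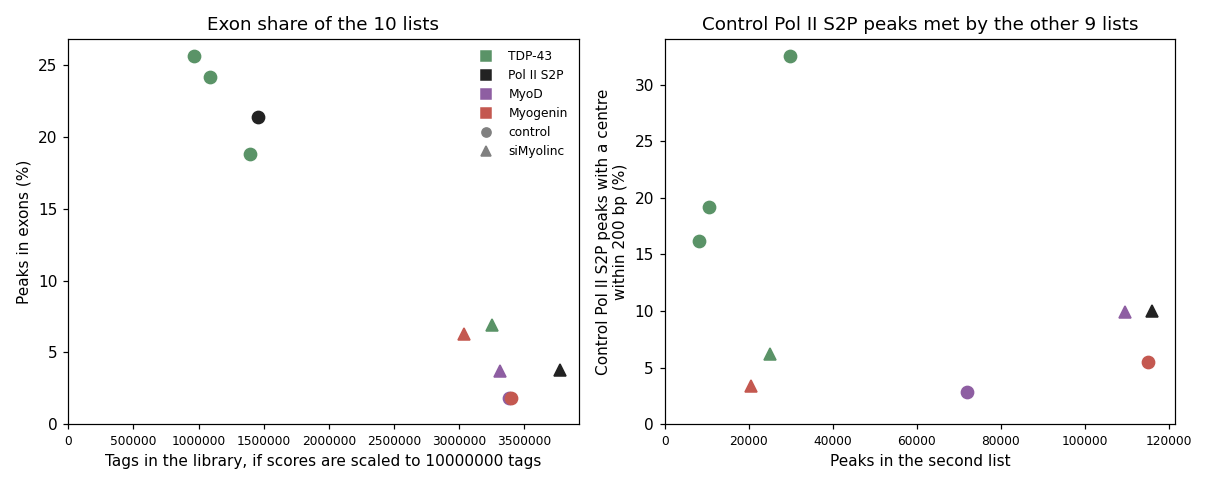
Left, exon share (%) of the 10 lists against library depth in tags, with symbols by antibody and condition; right, percent of control Pol II S2P peaks with a peak centre within 200 bp in each of the other 9 lists against the length of that list. The 4 shallow control lists stand at 18.8% to 25.6% exon peaks and the 6 deep lists, controls included, at 6.93% or less.

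Few control positions were found again after knockdown. Of the 10715 control peaks, 1070 had a siMyolinc Pol II S2P peak centre within 200 bp, or 9.99% (9.43 to 10.6). At equal length 201 did, or 1.88% (1.64 to 2.15). In reverse, 0.924% of siMyolinc peaks had a control peak that close. The value depended on the distance allowed, from 4.18% within 50 bp to 15.1% within 500 bp and 21.7% within 1000 bp. The median control peak had its nearest siMyolinc peak 4408 bp away, and 55745 bp away at equal length.

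Control exon peaks were found again more often than control repeat peaks. The percentage was 13.8% (12.5 to 15.3) for exon peaks, 16.2% (12.1 to 21.4) for peaks in 3′ untranslated regions, 11.7% for promoters, 9.76% for introns and 7.44% (6.70 to 8.26) for intergenic peaks. Simple repeats were found again at 3.21% (2.28 to 4.50) and SINEs at 5.68%. By control peak height the percentage was 7.42% at 5 tags or fewer, 10.9% at 6, 11.2% at 7, 12.1% at 8, 13.7% (11.6 to 16.1) at 9 to 10 and 11.1% (8.24 to 14.8) at 11 to 15, with 3 of 17 peaks at 16 to 20 tags and 1 of 31 over 20. At equal length it was 1.11% at 5 tags or fewer, 2.06% at 6 and 2.64%, 2.53%, 2.41% and 2.28% in the next 4 classes, whose intervals overlap. The 1070 control peaks found in both lists were 29.5% exonic, and 812 of them lay outside repeats.

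How often control Pol II S2P peaks were met differed between the other lists of the series. The siMyolinc MyoD list, with 109522 peaks, met 1059 control Pol II S2P peaks, or 9.88% (9.33 to 10.5), beside the 9.99% (9.43 to 10.6) of the siMyolinc Pol II S2P list. For control exon peaks the values were 14.0% and 13.8%. The control Myogenin list, with 115000 peaks, met 5.54%, the control MyoD list, with 71878, met 2.84%, the siMyolinc Myogenin list 3.35% and the siMyolinc TDP-43 list 6.19%. The 3 control TDP-43 lists met 32.6%, 19.2% and 16.2% of control Pol II S2P peaks, although they held only 29703, 10571 and 8162 peaks. When every list was shortened to its best 8162 peaks, the siMyolinc lists met 161 control peaks for Pol II S2P, 44 for MyoD, 88 for Myogenin and 324 for TDP-43. Control Pol II S2P positions were thus met more by the shallow control lists of another protein than by the same antibody after knockdown. What these shared positions have in common beyond depth was not tested.

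Positions found in both lists with the best ranks were mostly exons of genes outside the muscle lists. The best pair outside repeats lay at exon 20 of 21 of Camk2b, a calcium- and calmodulin-dependent kinase subunit (chr11:5972151-5972375 in control), with 13 tags in control and 32 after knockdown. Exon 15 of 23 of Adgrl1, a latrophilin receptor (chr8:83934614-83934838), and the promoter of Adgb, androglobin (chr10:10472234-10472458), each had 12 and 28 tags. Exon 2 of 4 of Has3, a hyaluronan synthase (chr8:106874056-106874280), had 14 and 24. Exon 10 of 17 of Clip2, a microtubule-binding protein, had 10 and 32, and exon 6 of 6 of Zfp641, a zinc finger protein, 10 and 24. An intron of Tecr, a fatty acid elongation enzyme, had 10 and 29, an intergenic site nearest Gm13212 had 11 and 34, and the promoter of the microRNA gene Mir142b had 12 and 20. Both peaks of a pair need not sit on the same bases. The median distance between their centres was 63 bp over all 1070.

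The genes reached were shared much more than the positions, and gene length went with this. By nearest gene, 4723 genes had a gene-body peak in control and 15853 after knockdown, a ratio of 3.36, and 4155 of the control genes (88.0%, 87.0 to 88.9) recurred. At equal length the siMyolinc list reached 4351 genes, a ratio of 0.921, and 35.5% of control genes recurred. Of 21031 protein-coding genes the share with such a peak was 19.8% in control, 65.7% after knockdown, 18.1% at equal length, 17.4% in both full lists and 7.02% in both at equal length. Recurrence of 88.0% therefore stands against a share of 65.7% of all protein-coding genes with a siMyolinc peak.

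The nearest gene is not always the gene that the annotation class refers to. Both were the same for 67.4% of control and 69.6% of siMyolinc gene-body peaks, so genes were also taken from the annotated transcript, as in all that follows. By that rule 4533 control genes and 14657 siMyolinc genes had a gene-body peak and 3907 were shared, which is 86.2% of the control genes and 26.7% of the siMyolinc genes. Among the protein-coding genes the shares were 20.5%, 63.8% and, at equal length, 18.2%, with 17.8% in both full lists and 7.57% in control and the equal-length list.

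Genes with an exon peak recurred at a lower percentage, but the background was lower too. There were 1916 in control and 3567 after knockdown, and the 803 in both made up 41.9% (39.7 to 44.1) of the control genes and 22.5% of the siMyolinc genes. As shares of protein-coding genes these were 9.11%, 17.0% and 3.82%, and 3.05% for the equal-length list with 0.989% in common with control. Recurrence of 41.9% by exon peaks thus stands beside a background of 17.0%, and the 86.2% by gene-body peaks beside 63.8%. Promoter peaks marked 395 control genes and 2201 siMyolinc genes, and the 76 shared ones were 19.2% (15.7 to 23.4) of the control genes. The protein-coding shares were 1.61%, 9.18% and 0.309%, and 0.946% at equal length with 0.0285% in common with control.

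Genes with a peak in both lists were long. Their median length was 49.2 kb among protein-coding genes, against 9.15 kb for those with a peak in control alone, 25.9 kb for those with a peak after knockdown alone and 17.7 kb for all. Among the longest genes, from 58.8 kb upwards, 94.6% had a siMyolinc peak and 98.9% of those with a control peak recurred. Among the shortest, up to 4.47 kb, 21.3% had a siMyolinc peak and 47.3% of those with a control peak recurred. The rank correlation of gene length with the number of peaks was 0.294 in control, 0.709 after knockdown and 0.369 at equal length over 21031 genes, which are not independent replicates and share a library. Per Mb of gene, the shortest genes had 32.9 control and 122 siMyolinc peaks, and the longest 3.78 and 45.3. Values per Mb that are set beside those of all genes below are therefore not matched for gene length.

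The genes with most peaks were largely different in the 2 lists, with Camta1 in both, but the leaders of each list also had peaks in the other. In control they were Cacna1a, a neuronal calcium channel subunit, with 13 peaks of which 6 were in exons, and Zfp423, a zinc finger transcription factor, with 10, of which 3 were in exons. Camta1, a calmodulin-binding transcription activator, Dmd, dystrophin, and Lrp1, an endocytic receptor, had 9 each, with 2, 0 and 8 in exons. Celsr1, a cadherin of planar cell polarity, had 8 control peaks, all in exons. After knockdown Wwox, an oxidoreductase gene over a common fragile site, led with 76 peaks, followed by Camta1 with 72, Ptprt, a receptor phosphatase, with 69, Cdh13, T-cadherin, with 67, Cntnap2, a neurexin family member, with 66 and Asic2, an acid-sensing channel, with 59. Among these 6 only Ptprt and Cntnap2 had an exon peak, 1 each. Wwox, Ptprt, Cdh13, Cntnap2 and Asic2 had 3, 1, 2, 4 and 4 peaks in control. Cacna1a, Zfp423, Dmd, Lrp1 and Celsr1 had 42, 38, 38, 17 and 18 peaks after knockdown. The siMyolinc leaders were 802 to 2241 kb long and the control leaders 83.0 to 2390 kb.

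Genes of muscle structure and contraction were not more often marked in control than genes at large. Of 89 members, 16 had a control peak (18.0%, beside 20.5% of all protein-coding genes), 75 a siMyolinc peak (84.3%, beside 63.8%) and 19 an equal-length peak (21.3%, beside 18.2%). Per Mb of gene the list had 6.94 control and 43.96 siMyolinc peaks, against 5.80 and 52.8 over all genes. Exon peaks were found in 11 members in control (12.4%, beside 9.11%), 22 after knockdown (24.7%, beside 17.0%) and 3 at equal length (3.37%, beside 3.05%). The median number of peaks per member was 0 in control and 2 after knockdown, beside 0 and 1 over all genes. Of the 16 control members, 15 also had a siMyolinc peak, beside 86.2% of all control genes.

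Ryr1, the calcium release channel of the sarcoplasmic reticulum, had 7 control peaks with 8 tags at most, in exon 24 of 106. It had 13 siMyolinc peaks, led by intron 103 with 16 tags. Myom3, an M-band protein, had control peaks in exons 12, 25 and 5 with 7, 6 and 5 tags, whereas its 5 siMyolinc peaks all lay in introns, with 7 to 19 tags. Cacna1s, the voltage sensor of excitation-contraction coupling, had 5 tags in exon 4 in control and 19 in exon 29 after knockdown. Jph1, a junctophilin of the same apparatus, had 6 tags in exon 2 in control and 8 each at its promoter and in intron 2 after knockdown. In these 4 genes the strongest peak sat at different places in the 2 lists.

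The sarcomeric myosin heavy chain genes lie next to each other and share near-identical exons, so the place of their tags is uncertain. Myh8, the perinatal form, had the same exon in both lists, exon 27 of 40, with 9 control tags (4.12 to 17.1) and 22 siMyolinc tags (13.8 to 33.3). It also had control peaks in exons 35 and 40 with 6 tags each, and siMyolinc peaks in exons 37 and 39 with 15 each. Myh3, the embryonic form, had 7 control tags in exon 30 of 41 and no siMyolinc peak. Myh2, the fast IIa form, had 6 tags each in intron 28 and exon 35 in control and 16 tags in intron 17 after knockdown.

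Of 41 regulators of myogenesis and fusion, 12 had a peak in control (29.3%), 30 after knockdown (73.2%) and 12 at equal length (29.3%), beside 20.5%, 63.8% and 18.2% of all protein-coding genes, with 4.90 and 55.3 peaks per Mb in the full lists. Myod1, the master regulator, had a control promoter peak of 6 tags (2.20 to 13.1) centred just before the start and no gene-body siMyolinc peak. Myog, myogenin, had 5 control tags in exon 1 (1.62 to 11.7) and no siMyolinc peak. With counts this low, absence from a list says only that the authors' threshold was not passed. Mef2d, a MADS-box transcription factor, went from 5 tags in exon 4 to 4 siMyolinc peaks led by intron 1 with 12 tags. Mrtfa, a coactivator of serum response factor, had 2 control peaks with 7 and 5 tags and 20 siMyolinc peaks led by intron 2 with 23 tags. Myocd, a related coactivator, had 5 tags in exon 10 in control and 6 siMyolinc peaks, all in introns, led by 21 tags.

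Filip1, the protein-coding neighbour of the Myolinc locus, had 1 control peak, in exon 5 of 6 with 5 tags (1.62 to 11.7). After knockdown it had 10 peaks, all in introns, with 6 to 18 tags, the strongest in intron 2 (10.7 to 28.4). None of them was among the best 10715. The gene is 208 kb long, which puts it among the longest genes, where 94.6% had a siMyolinc peak.

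Acta1, skeletal muscle actin, had no control peak and 3 siMyolinc peaks, in exon 2 with 32 tags (21.9 to 45.2) and at the promoter with 11 and 9. The exon 2 peak was among the best 10715, which held no peak of Filip1, Myod1, Myog, Ttn, Ckm, Des or Malat1. Ttn, titin, had no control peak and 14 siMyolinc peaks of 6 to 17 tags, 7 of them in exons. Des, desmin, went from 0 to 2 peaks of 11 and 6 tags, and Malat1, an abundant nuclear noncoding RNA, from 0 to 1 promoter peak of 9 tags. Actb, Gapdh and Polr2a, which encode cytoplasmic actin, a glycolytic enzyme and the largest Pol II subunit and are transcribed in nearly every cell, had no gene-body peak in either list.

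Other genes known to be highly transcribed were also marked in small numbers. In the list of cytoskeletal and glycolytic genes, 5 of 38 members had a control peak (13.2%), 18 a siMyolinc peak (47.4%) and 4 an equal-length peak (10.5%), each below the 20.5%, 63.8% and 18.2% of all protein-coding genes. These genes are short, with a median of 5.62 kb. Per Mb the list had 11.1 control and 79.3 siMyolinc peaks, against 5.80 and 52.8 over all genes but 19.6 and 92.0 over genes of 4.48 to 12.2 kb. Of the genes in that length range 13.9% had a control peak, 50.5% a siMyolinc peak and 9.15% an equal-length peak. Tubb6, a beta-tubulin, had peaks in exon 4 of 4 in both lists with 8 and 26 tags. Myh9, non-muscle myosin heavy chain, had control peaks in exon 34 and at the TTS with 7 and 6 tags and 14 siMyolinc peaks led by intron 1 with 26. Lmna, lamin A/C, had 6 tags in exon 7 in control and no siMyolinc peak. Cytosolic ribosomal protein genes are also short, with a median of 3.18 kb. They were marked in 2 of 83 members in control (2.41%), 23 after knockdown (27.7%) and 2 at equal length (2.41%), beside the same 20.5%, 63.8% and 18.2%. Genes up to 4.47 kb were marked at 6.49%, 21.3% and 2.80%. Per Mb the ribosomal list had 6.59 control and 92.3 siMyolinc peaks, below the 32.9 and 122 of genes up to 4.47 kb.

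Among factors of Pol II elongation, 9 of 36 members had a control peak (25%), 25 a siMyolinc peak (69.4%) and 7 an equal-length peak (19.4%), close to the 20.5%, 63.8% and 18.2% of all protein-coding genes. All 9 control members were in both lists, beside 86.2% of all control genes. Cpsf1, a subunit of the cleavage and polyadenylation complex, had 9 tags at its TTS and 8 in exon 31 of 37 in control, and 11 in intron 23 and 10 in exon 9 after knockdown. Nelfcd, of the negative elongation factor, had 8 tags in exon 8 and then 4 peaks led by intron 5 with 18. Aff1, a scaffold of the super elongation complex, had 7 tags in exon 10 and then 7 peaks led by intron 11 with 22. Supt5 and Supt6, elongation factors that travel with Pol II, had 7 tags in exon 20 and 5 in exon 32. After knockdown Supt5 was led by its promoter with 16 tags and Supt6 by its TTS with 27. Ccnk, the cyclin of CDK12 and CDK13, had 5 tags in exon 9 and then 15 in intron 5.

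Lists of other lineages lay both above and below the shares of all protein-coding genes, which were 20.5% in control, 63.8% after knockdown and 18.2% at equal length. Of 49 neuronal and synaptic genes, with a median length of 103 kb, 30 had a control peak (61.2%), 44 a siMyolinc peak (89.8%) and 24 an equal-length peak (49.0%). Per Mb the list had 5.30 control and 39.8 siMyolinc peaks, beside 5.80 and 52.8 over all genes. Genes from 58.8 kb upwards had 3.78 and 45.3 per Mb, so the list lay above them in control and below them after knockdown. Of those long genes 40.6% had a control peak, 94.6% a siMyolinc peak and 43.7% an equal-length peak. In the same order, hepatocyte genes had 3, 16 and 1 of 28 members (10.7%, 57.1% and 3.57%) and osteoblast and adipocyte genes 3, 10 and 5 of 16 (18.8%, 62.5% and 31.2%). Olfactory receptor genes, which are short, had 5, 93 and 6 of 1104 (0.453%, 8.42% and 0.543%). Extracellular matrix genes had 11, 25 and 9 of 32 (34.4%, 78.1% and 28.1%). Cell cycle and replication genes had 2, 26 and 4 of 36 (5.56%, 72.2% and 11.1%), with 2.43 and 69.3 peaks per Mb. Long noncoding RNAs, which are not among the protein-coding genes, had 0, 7 and 2 of 16 (0%, 43.8% and 12.5%).

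The defining markers of each cell type are few, so their counts are small. A gene-body peak was present for 4 of 10 skeletal muscle markers in control (Myod1, Myog, Ckm and Myh3) and 5 after knockdown (Des, Ckm, Acta1, Tnnt3 and Mymk), with 1 at equal length (Acta1), beside 20.5%, 63.8% and 18.2% of all protein-coding genes. Myf5 and Chrna1 had no peak in either list. Neuron markers had 1 of 4 and then 4 of 4, led by Rbfox3 with 4 control peaks and 51 siMyolinc peaks. Hepatocyte markers had 1 of 4 and 3 of 4, adipocyte markers 1 of 4 and 3 of 4, and fibroblast markers 1 of 6 and 4 of 6. At equal length neuron, hepatocyte and fibroblast markers had 1 each and adipocyte markers 0. Summed tags of the muscle markers ranged from 0 to 7 per gene in control and from 0 to 52 after knockdown, and those of the neuron markers from 0 to 26 and from 10 to 715. Peaks and tags of the markers were not scaled for gene length.

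**Figure D5:**
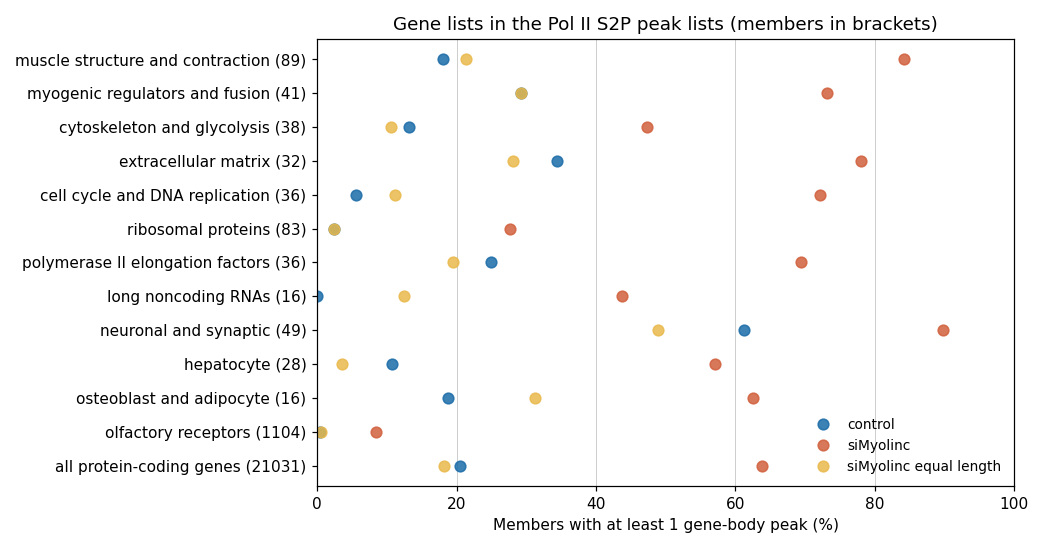
Members of each gene list with at least 1 gene-body peak (%) in the control list, the siMyolinc list and its 10715 best peaks, with all protein-coding genes at the bottom. Muscle structure genes stand at 18.0% in control, 84.3% after knockdown and 21.3% at equal length, beside 20.5%, 63.8% and 18.2% of all protein-coding genes.

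The strongest exon peaks named different genes in each list. Outside repeats, control exon peaks were led by Sfi1, a centrin-binding protein gene with near-identical copies, so the place of its 47 tags in exon 29 of 33 is uncertain. Lrp5, a Wnt coreceptor, Msantd3 and Tbc1d9 followed with 16 tags each (9.15 to 25.98), and Magi1 with 15 in its last exon, 23 of 23. The siMyolinc exon peaks were led by Boc, a cell-surface receptor that promotes myoblast differentiation, with 53 tags in exon 5 of 19 (39.7 to 69.3). Slc17a9 and Slc45a4, solute carriers, had 46 each, Fat1, an atypical cadherin, 43, Bdkrb2, a bradykinin receptor, 42 and Pcsk6, a proprotein convertase, 41.

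In untranslated regions and at TTS, the best control peaks lay in the 3′ untranslated regions of Ciapin1, Skp2, Cerk and Kctd2, with 18, 16, 14 and 14 tags. Ciapin1 acts in iron-sulfur protein assembly, Skp2 in ubiquitin ligation and Cerk is ceramide kinase. After knockdown the best were the 3′ untranslated region of Fto, an RNA demethylase, with 48 tags (35.4 to 63.6), the TTS of Ucn, urocortin, with 36, the 5′ untranslated region of Ccdc172 with 35 and the 3′ untranslated region of Gxylt1 with 35. No gene was in both of these short lists.

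Promoters under control peaks had a higher median G and C content than promoters at large. The windows of 300 bases from 250 before to 50 after the start had a median GC content of 52.7% over all 32851 windows, 60.7% (quartiles 57.3 and 63.7) for the 225 with a control peak centre and 56.7% (quartiles 51.3 and 62.3) for the 959 with a siMyolinc one. The equal-length list had 56.8% over 92 windows, and the 20 windows met by both lists 61.2%. The median number of CG dinucleotides was 7 over all windows, 14 in control, 12 after knockdown and 16 in both. Of the printed promoters, Ckm and Myl9 had 64.7% and 68.3% GC over the 300 bases, B3galt5 67.3%, Dnaaf4, met by the siMyolinc list alone, 60.3% and Sptbn1, met by the control list alone, 57.0%. The letters TATAAA, searched on both strands, were in 13.6% of all windows, 9.78% (6.55 to 14.4) of control windows and 8.45% (6.85 to 10.4) of siMyolinc windows. Besides Ckm, Myl9 and B3galt5, both lists met the promoters of Slc12a3, a thiazide-sensitive cotransporter, with 6 and 30 tags, Etv5, an ETS transcription factor, with 5 and 10, and Tagln3, a neuronal transgelin, with 8 and 11, all named after their values were seen.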

How the data were processed

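ChIP-seq of Pol II S2P was analysed in 1 control and 1 siMyolinc library, beside the 8 other peak lists of the series. HOMER annotation on the mm10 build was done by the authors, as the submitters' processing notes and the layout of the files state. For the aligner, the settings of peak calling and HOMER's version, the entry is: not given in the sources used here. The deposited tables give, per the file headers, a peak score, an annotation, a nearest gene and a distance to its start in bp for each peak. Peak score is a value of the authors' making and served only to rank or filter inside a list. The focus ratio in the deposited tables, a fraction, entered no result.

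Scores in each list were whole multiples of a step (within 0.05, the top 1% set aside), read as 1 tag. Library depth in tags assumes scaling to 10000000 tags, which no header states. For equal length, ties at 19 tags (1981 of 2509 kept) were ordered with seed 7. A gene-body peak has any class but intergenic. Positions and lengths of genes came from the RefSeq table (GRCm38), with transcripts matched for 98.6% of gene-body peaks and missing strands taken from the deposited distances, which matched known strands for 97.4% of genes checked. Peaks on the mitochondrial genome were left out. The peak matching and the step search were tested on simulated data.

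The members, the 12 gene lists and the tests were chosen with earlier results of these data known. The genes named were, by rule: members of the muscle, myogenic, cytoskeletal and elongation lists with a control exon or promoter peak (at most 8 per list), the 10 best positions in both lists, the 6 best exon and 4 best gene-end or untranslated peaks of each list, the 6 genes with most peaks, and 11 fixed genes. A few genes that this rule names are not reported here. Tools were Python 3.11.15, pandas 2.3.3, numpy 2.4.6, scipy 1.17.1 and matplotlib 3.10.9. Alternatives were equal length, score and tag thresholds, removal of repeats or of the top 1%, other distances and other gene assignments.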

Additional observations from a re-analysis of the deposited data

Results flagged for a closer look

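The control Pol II S2P list held 1 peak on the mitochondrial genome, at positions 13246 to 13470, with 16 tags (exact Poisson 95% interval 9.15 to 25.98). It lies outside the peaks compared, all of which are nuclear, and the siMyolinc Pol II S2P list had 0 such peaks.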

How the results depend on the processing

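Differences are siMyolinc minus control in percentage points, and the cause of each shift was not tested unless the alternative itself shortens a list. The exon difference of -17.6 was -15.0 at equal length under both orders of ties (-14.98 and -14.96), -21.8 at or above the median score, -29.9 with at least 10 tags and -27.2 without repeats. The promoter difference of -1.77 was -2.63 without repeats. The difference downstream of the gene midpoint, -6.42, was -4.19 and -4.35 at equal length, -8.35 at or above the median score, -13.2 with at least 10 tags, -2.90 for exon peaks and -1.35 for intron peaks (both added after seeing the data), and the measure by intron number gave -0.693. The percent of control peaks found again, 9.99, was 1.88 and 1.87 at equal length, 8.23 at or above the median score, 11.8 without repeats, and 6.98, 15.1 and 21.7 with centres within 100, 500 and 1000 bp. The ratio of genes with a gene-body peak, 3.36, reversed to 0.921 at equal length with either order of ties, since the siMyolinc list was then shortened, and was 29.3 with at least 10 tags. The percent of control genes found again, 88.0, was 35.5 and 35.7 at equal length, 79.7 at or above the median score, 87.0 with at least 10 tags, 83.8 without repeats and 86.2 by annotated transcript. With 1 library per condition, leaving out a library gave no value. No paired analysis was possible because each condition had 1 library. How far depth limits the control list, whose median peak held 6 tags, was not tested. A gene without a peak is not shown to lack polymerase.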
